A study of Homo sapiens with 8 samples.

Results

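The nuclear-encoded subunits of the respiratory chain and of the ATP synthase were followed in 2 human colorectal cancer cell lines after knockdown of a large-subunit ribosomal protein. They were taken by gene symbol, as every symbol that starts with NDUFA, NDUFB, NDUFC, NDUFS or NDUFV and a number, SDHA to SDHD, every symbol that starts with UQCR or ATP5, and the COX symbols of the nuclear-encoded families from COX4 to COX8. Of 86 symbols that matched, 83 had a mean of at least 1 RPKM (a read count scaled to transcript length and library size) over the 8 libraries, of 19124 genes listed and 14281 that passed the same minimum. They were 39 genes of complex I, 4 of complex II, 9 of complex III, 12 of complex IV and 19 of complex V. The 3 that did not pass were tissue-restricted isoforms of complex IV: COX6A2, listed at 0 in all 8 libraries, COX7B2, with a mean of 0.0132 RPKM, and COX8C, with a mean of 0.334 RPKM. Just inside the minimum were COX7A1, the muscle isoform, with a mean of 1.68 RPKM, COX6B2 with 2.88 RPKM and UQCRHL with 3.48 RPKM. The symbols miss some subunits, such as COX4I1, NDUFAB1 and CYC1. They take in NDUFA4, now placed in complex IV, the assembly-related ATP5S and ATP5SL, and the read-through genes ATP5J2-PTCD1 and NDUFC2-KCTD14, which share reads with ATP5J2 and NDUFC2.

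Complexes I and II pass electrons from NADH and succinate to ubiquinone, complex III passes them on to cytochrome c, and complex IV passes them to oxygen. Complexes I, III and IV pump protons across the inner mitochondrial membrane, and the ATP synthase, complex V, uses that gradient to make ATP. Most of the subunits are encoded in the nucleus, translated on cytosolic ribosomes and imported into mitochondria, where they join core subunits made from mitochondrial DNA.

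HCT116 and HT29, established lines from human colorectal cancers grown in RPMI medium, were transfected with siRNA against RPL9, RPL17 or RPL27 or with a negative control siRNA (NC). The siRNA was given at 15 nM with a lipofection reagent, and total RNA was taken after 48 h. There was 1 library for each line and siRNA, 8 in all, so that no siRNA was repeated within a line. The p-values therefore measure no spread between repeated cultures. In most fits they rest on how much the siRNA differences varied between the lines. For the difference between lines of the RPL effect they rest on the spread of the RPL siRNAs within a line. Within its line, each siRNA left its own target at 13.7% to 38.5% of the NC level and at 29% to 34.1% of the mean under the other two RPL siRNAs. Rough depths from low values of single-exon genes were 20.6 to 26.4 M reads, and 13.1% to 15.7% of the genes were listed at 0 in a library. Of 8 markers of colon epithelium, 6 to 7 reached 1 RPKM per library, with sums of 15951 to 42258 RPKM. CDX1 was at 0 in 6 libraries and at most 0.0819 RPKM. Of 8 markers of leukocytes, fibroblasts and endothelium 2 to 4 reached 1 RPKM, with sums of 292 to 504 RPKM, most of it COL1A1 at 252 to 437 RPKM. The HT29 NC library stood apart: the deviation of its genes from their mean over the other 7 libraries correlated with transcript length at a Spearman rho of -0.53, so that short transcripts read high. Each of the other 7 libraries, set in the same way against the rest with HT29 NC among them, had a rho of 0.12 to 0.22. In bulk RNA a smaller number of cells of a kind and less RNA per cell cannot be told apart.

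Of the 83 genes, 56 had a single promoter in the RefSeq table of the human genome (GRCh38.p14), and genes with none or several were left out. The promoters of the 3 genes that were lower under RPL27 siRNA than under both other RPL siRNAs (UQCRC2, COX7C, ATP5E) are given first. NDUFS7 follows, the complex I gene with the highest log2 difference between the lines, and then SDHB, the complex II gene higher in HCT116. Each runs 5′ to 3′ on the gene's strand from 250 bases before the start of transcription to 50 bases after it. Capitals mark the letters of 4 motifs searched on both strands: GCATGCGC (NRF1), ACCGGAAG (ETS family), AAGATGGCG (YY1) and GGGCGGGG (SP1).
UQCRC2, chr16:21953111-21953410, plus strand: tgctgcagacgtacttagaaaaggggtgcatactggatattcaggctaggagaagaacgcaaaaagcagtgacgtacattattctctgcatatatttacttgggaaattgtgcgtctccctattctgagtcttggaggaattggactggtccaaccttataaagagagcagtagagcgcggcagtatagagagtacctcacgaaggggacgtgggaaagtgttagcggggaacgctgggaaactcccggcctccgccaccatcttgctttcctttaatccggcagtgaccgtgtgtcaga
COX7C, chr5:86617691-86617990, plus strand: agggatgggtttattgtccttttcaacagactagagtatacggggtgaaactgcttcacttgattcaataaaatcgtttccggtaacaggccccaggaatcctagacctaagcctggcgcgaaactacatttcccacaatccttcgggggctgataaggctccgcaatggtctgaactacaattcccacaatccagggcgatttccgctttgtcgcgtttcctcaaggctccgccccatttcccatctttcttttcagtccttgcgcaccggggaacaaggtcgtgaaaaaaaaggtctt
ATP5E, chr20:59032286-59032585, minus strand: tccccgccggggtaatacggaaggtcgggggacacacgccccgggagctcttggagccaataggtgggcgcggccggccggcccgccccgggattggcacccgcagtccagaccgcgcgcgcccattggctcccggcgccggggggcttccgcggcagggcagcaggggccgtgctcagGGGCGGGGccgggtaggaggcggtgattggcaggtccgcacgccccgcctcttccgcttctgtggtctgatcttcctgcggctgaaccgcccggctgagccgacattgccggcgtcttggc
NDUFS7, chr19:1383657-1383956, plus strand: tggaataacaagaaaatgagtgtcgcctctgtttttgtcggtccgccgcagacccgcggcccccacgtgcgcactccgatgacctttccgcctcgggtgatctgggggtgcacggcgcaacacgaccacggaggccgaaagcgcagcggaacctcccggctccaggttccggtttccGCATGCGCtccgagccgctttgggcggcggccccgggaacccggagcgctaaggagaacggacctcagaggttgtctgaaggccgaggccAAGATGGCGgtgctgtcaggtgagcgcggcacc
SDHB, chr1:17053983-17054282, minus strand: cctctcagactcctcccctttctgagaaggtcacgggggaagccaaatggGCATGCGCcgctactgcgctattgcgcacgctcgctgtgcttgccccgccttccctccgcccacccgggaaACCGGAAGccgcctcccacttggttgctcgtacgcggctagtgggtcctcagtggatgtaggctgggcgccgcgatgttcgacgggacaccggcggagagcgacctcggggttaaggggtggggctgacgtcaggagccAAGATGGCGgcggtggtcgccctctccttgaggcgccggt
The windows of UQCRC2 and COX7C held none of the 4 motifs and that of ATP5E only the SP1 letters, from base -71. NDUFS7 held the NRF1 letters from base -73 and the YY1 letters from base 17, and SDHB held the NRF1, ETS and YY1 letters from bases -200, -129 and 10. Among the 56 promoters the NRF1 letters stood in 11 (19.6%, against 3.1% of all 35116 promoters in the table), the YY1 letters in 7 (12.5%, against 1.7%), the ETS letters in 4 (7.1%, against 2.2%) and the SP1 letters in 12 (21.4%, against 22.8%). The table as a whole was not limited to genes with a single promoter, so that these shares compare unlike sets. A match is a description of these letters in this window and not of binding.

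The subunit genes were expressed throughout. None was at 0 in any library, 77 had means over 50 RPKM, and the mean ranged from 1.68 RPKM for COX7A1 to 6862 RPKM for ATP5B, the catalytic beta subunit of the ATP synthase. The median of the listed means was 702 RPKM, against 110 RPKM over all tested genes. The deposited values look like exon RPKMs summed per gene, so that these medians describe listed values only. Levels are otherwise compared here between libraries and not between genes. The transcripts were short, with a median length of 1039 bases against 2721 bases over the tested genes, and 43 of the 83 genes have a named pseudogene that could share reads.

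Outside the HT29 NC library, in which most of them were highest, the subunit genes varied little. Over the other 7 libraries the highest value of a gene was at most 1.5 times its lowest in 55 of the 83, where 23.5% of all tested genes were that even, and the median ratio was 1.39 against 1.88. The subunit genes also have higher listed values than most tested genes, and the part of level in this was not tested. NDUFV1, the complex I subunit that binds NADH, ran from 758 to 878 RPKM, and COX8A, a small membrane subunit of complex IV, ran from 309 to 367 RPKM. The widest ratios were in 3 genes of low level: 15.6 for NDUFA4L2, a paralog of NDUFA4 induced by hypoxia in other cells, 6.21 for COX7A1 and 5.61 for COX6B2. Among genes over 50 RPKM the widest were COX7C with 2.61, NDUFS7 with 2.49, ATP5E with 2.41 and UQCRC2 with 2.37.

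Summed over the 83 genes, the RPL9, RPL17 and RPL27 libraries held 83151, 83049 and 84489 RPKM in HCT116, against 80809 RPKM in HCT116 NC. In HT29 they held 78730, 73708 and 72867 RPKM, against 138274 RPKM in HT29 NC. The HT29 NC library thus had the highest sum of the 8, and it was the highest of the 8 libraries for 75 of the 83 genes, where it was the highest for 23.2% of all tested genes. The subunits took 1.93% of all RPKM in it and 1.11% to 1.26% in the other 7. For this reason the RPL siRNAs are compared first with each other, then with NC within each line.

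Called lower under RPL27 siRNA against the other RPL siRNAs were 3 subunit genes, in 3 different complexes: UQCRC2, COX7C and ATP5E. UQCRC2 encodes a core protein of complex III. It had 1238 RPKM in HCT116 RPL27, against 2937 and 2641 RPKM in HCT116 RPL9 and RPL17 and 2639.8 RPKM in HCT116 NC. In HT29 it had 1246 RPKM in RPL27, against 2807 and 2528 RPKM in RPL9 and RPL17 and 3150 RPKM in NC. The 2 RPL27 libraries lay below all 6 others, at 44.4% (HCT116) and 46.7% (HT29) of the mean of the other RPL libraries in their line. The log2 difference was -1.13 (SE 0.05, adjusted p = 0.00199, limma over all tested genes with line as a term), which is 0.456 times the level.

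COX7C encodes a small membrane subunit of complex IV. It had 661 RPKM in HCT116 RPL27, against 1093 and 1345 RPKM in HCT116 RPL9 and RPL17 and 1257 RPKM in HCT116 NC. In HT29 it had 515 RPKM in RPL27, against 1141 and 1049.7 RPKM in RPL9 and RPL17 and 2708 RPKM in NC. Both RPL27 libraries again lay below the other 6, and the log2 difference against the other RPL siRNAs was -0.98 (SE 0.10, limma adjusted p = 0.0234). ATP5E encodes the epsilon subunit in the central stalk of the ATP synthase. It had 784 RPKM in HCT116 RPL27, against 1306 and 1417 RPKM in HCT116 RPL9 and RPL17 and 1307 RPKM in HCT116 NC. In HT29 it had 933 RPKM in RPL27, against 1888 and 1709.8 RPKM in RPL9 and RPL17 and 3675 RPKM in NC. Its RPL27 libraries were the lowest of the 8 as well, with a log2 difference of -0.87 (SE 0.08, limma adjusted p = 0.0147).

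**Figure D1:**
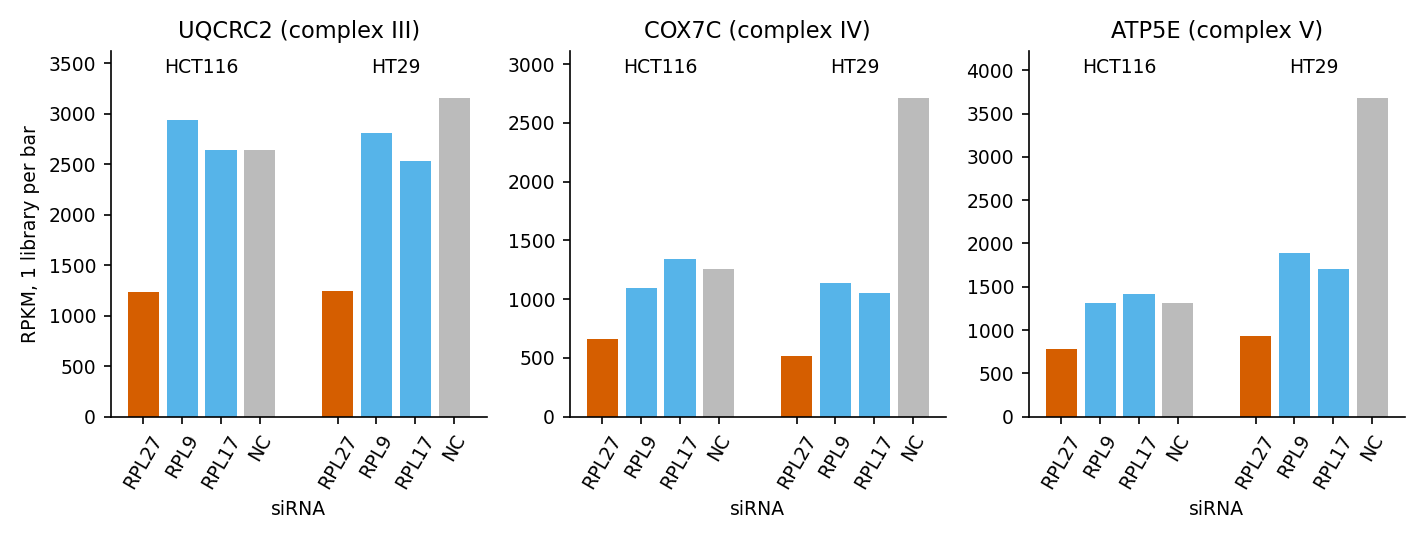
RPKM (vertical axis, from 0) of UQCRC2, COX7C and ATP5E in each library, HCT116 on the left and HT29 on the right of each panel, with RPL27 siRNA in orange, RPL9 and RPL17 siRNA in blue and NC siRNA in grey. Each bar is 1 library and has no error bar. The orange bars are the lowest in both lines for all 3 genes, and the HT29 NC bars of COX7C and ATP5E reach 2708 and 3675 RPKM.

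No subunit was called higher under RPL27 siRNA, and 14 of the 83 had an unadjusted limma p under 0.05 in either direction, as did 18.5% of all tested genes. Over all tested genes, 0.777% were called lower and 0.476% higher in this comparison, so that 3 of 83 lower (3.61%) is a small count. Without regard to calls, the RPL27 library was the lowest RPL library in both lines for 16 of the 83 genes. The same held for 2435 of the 14281 tested genes. The other 80 genes ran from -1.10 to 0.29 on the log2 scale with a median of 0.01, and the median of all 83 was 0.0037 (all tested genes -0.003). The partners of the 3 genes in their complexes were not called. In complex III, UQCRC1, the other core protein, had a log2 difference of 0.16 (limma adjusted p = 0.182), and UQCRB, UQCRH and UQCRQ had 0.11, 0.11 and 0.00. In complex IV, COX5A and COX5B, matrix-side subunits, had -0.15 and 0.15, and COX7A2, a small membrane subunit, had 0.12. In complex V, ATP5C1 and ATP5D, the gamma and delta subunits that share the stalk with ATP5E, had 0.04 and 0.07.

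NDUFS7, an iron-sulfur core subunit of complex I, came next among the well-expressed genes and was not called. It had 307 RPKM in HCT116 RPL27, against 412 and 425 RPKM in HCT116 RPL9 and RPL17, and 188 RPKM in HT29 RPL27, against 254 and 299 RPKM in HT29 RPL9 and RPL17. The 2 lines differed from the other RPL siRNAs by -0.45 (HCT116) and -0.55 (HT29), and the fit gave -0.50 (SE 0.09, limma adjusted p = 0.0751). NDUFA4L2 had -1.10 in the fit, on unequal lines and low values, with 1.04 RPKM in HCT116 RPL27 against 16.2 RPKM in HCT116 RPL9 (SE 0.60, limma adjusted p = 0.392). The highest log2 difference under RPL27 was that of NDUFA8, an accessory subunit of complex I, with 0.29 (SE 0.09, limma adjusted p = 0.183).

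**Figure D2:**
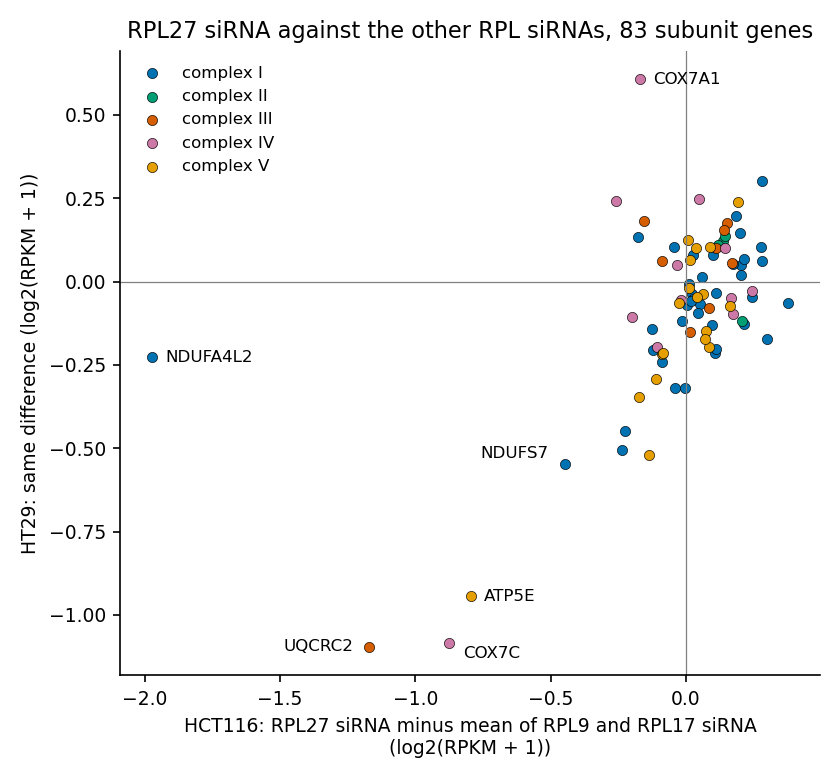
Log2 difference of RPL27 siRNA from the mean of RPL9 and RPL17 siRNA for the 83 genes, HCT116 on the horizontal and HT29 on the vertical axis, coloured by complex, 1 point per gene. UQCRC2 (-1.17 in HCT116, -1.10 in HT29), COX7C (-0.87, -1.09) and ATP5E (-0.80, -0.94) lie low on both axes, NDUFA4L2 is low in HCT116 alone (-1.97, -0.23), and most genes lie near 0.

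The 3 calls rest on few libraries. All 3 were kept without either RPL9 library. Only 1 was kept without HCT116 RPL17, HT29 RPL17 or HT29 RPL27, and 0 without HCT116 RPL27. Over all 17 alternatives the log2 differences stayed between -1.17 and -1.10 for UQCRC2, between -1.09 and -0.87 for COX7C and between -0.94 and -0.80 for ATP5E, and their adjusted p ranged from 0.000441 to 0.555, 0.00871 to 1 and 0.00493 to 1.

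Among the lists of related genes, 2 assembly factors were also called lower under RPL27 siRNA. MNF1 (now UQCC2), which is needed for the making of complex III, had 148 RPKM in HCT116 RPL27, against 254 and 316 RPKM in HCT116 RPL9 and RPL17 and 301 RPKM in HCT116 NC. In HT29 it had 183 RPKM in RPL27, against 384 and 322 RPKM in RPL9 and RPL17 and 759 RPKM in NC. Its log2 difference was -0.94 (SE 0.13, limma adjusted p = 0.0426). SELRC1 (now COA7), an assembly factor of complex IV, had 69.7 RPKM in HCT116 RPL27, against 141 and 123 RPKM in HCT116 RPL9 and RPL17 and 95.1 RPKM in HCT116 NC. In HT29 it had 54.3 RPKM in RPL27, against 113 and 88.5 RPKM in RPL9 and RPL17 and 62.7 RPKM in NC, and the fit gave -0.89 (SE 0.13, limma adjusted p = 0.0434). They were 1 of 14 assembly factors of complexes II, III and V and 1 of 24 of complex IV, where 0.777% of all tested genes were called lower. Both adjusted p lie near the threshold, and alternatives are not given for these 2 genes. Called were 0 of 15 assembly factors of complex I, 0 of 10 subunits and electron carriers outside the symbol rule, 0 of 17 genes of the citric acid cycle and pyruvate dehydrogenase, 0 of 21 regulators of mitochondrial biogenesis and 0 of 23 genes of protein import. At an unadjusted limma p under 0.05 these 5 lists had 1, 1, 2, 4 and 3 genes, where 18.5% of all tested genes were. Of the epithelial markers, KRT18 was called lower with -0.26 (limma adjusted p = 0.0476). Its part in these results was not tested.

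ATP5A1, the catalytic alpha subunit of the ATP synthase, was called lower under RPL9 siRNA against the other RPL siRNAs. ATP5A1 had 3829 RPKM in HCT116 RPL9, against 4682 and 4842 RPKM in HCT116 RPL17 and RPL27 and 5495 RPKM in HCT116 NC. In HT29 it had 2978 RPKM in RPL9, against 3626 and 3877 RPKM in RPL17 and RPL27 and 6589 RPKM in NC. The RPL9 library was the lowest of its line both times, and the log2 difference was -0.32 (SE 0.04, limma adjusted p = 0.0439), where 0.378% of all tested genes were called lower and 0.329% higher. UQCRC2 was the only subunit called higher under RPL9, with 0.68 (SE 0.05, limma adjusted p = 0.0163). It was also the only one called under RPL17, with 0.45 (SE 0.05, limma adjusted p = 0.0403), where 0.133% of the tested genes were called higher and 0.287% lower. These calls and the one under RPL27 use the same 6 libraries, and the low RPL27 values enter the other side of each. NDUFA2, an accessory subunit of complex I, had the lowest log2 difference under RPL17 with -0.48 (limma adjusted p = 0.113), and SDHD, a membrane anchor of complex II, had -0.32 (limma adjusted p = 0.14). The medians of the 83 genes were 0.04 under RPL9 and -0.07 under RPL17. With each of the 6 libraries left out in turn these 3 calls were lost, except that UQCRC2 under RPL9 was kept without HT29 RPL27.

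Within HCT116 the subunit genes were near their NC level after RPL knockdown. The mean log2 difference of the 3 RPL siRNAs from NC had a median of 0.07 over the 83 genes, with 48 above 0 and 35 below, where 50.5% of all tested genes were above and 49.3% below. The medians were 0.05, 0.06 and 0.07 for RPL9, RPL17 and RPL27, and by complex 0.09 (I), 0.01 (II), 0.11 (III), 0.06 (IV) and 0.06 (V). These are values of single libraries, with no test. The genes past 0.5 were UQCR11 (0.60), ATP5G1 (0.57), NDUFA3 (0.56) and NDUFV3 (0.53), and past -0.5 only NDUFB6 (-0.56), where 15.9% of all tested genes were past 0.5 and 17.5% past -0.5.

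ATP5G1 is 1 of 3 genes that encode the same c subunit of the rotor ring. It had 2684, 2552 and 2571 RPKM in HCT116 RPL9, RPL17 and RPL27, against 1758 RPKM in HCT116 NC. Its sister gene ATP5G2 had 1074, 1235 and 1163 RPKM in the same libraries, against 1052 RPKM in NC, and ATP5G3 had 1457, 1376 and 1424 RPKM, against 1379 RPKM in NC. Only ATP5G1 of the 3 had a mean difference past 0.5, and all 3 genes had RPL libraries above NC except ATP5G3 under RPL17. NDUFB6, an accessory subunit of the membrane arm of complex I, had 245, 242 and 246 RPKM in HCT116 RPL9, RPL17 and RPL27, against 360.0 RPKM in HCT116 NC.

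Within HT29 nearly all subunit genes were below NC after each RPL siRNA. The mean log2 difference had a median of -0.96, with 5 of 83 genes above 0 and 78 below, 70 of them at -0.5 or lower, where 42.4% of all tested genes were below 0 and 23.8% at -0.5 or lower. The medians were -0.90, -0.98 and -0.96 for RPL9, RPL17 and RPL27. By complex they were -1.05 (I), -0.45 (II), -1.03 (III), -1.04 (IV) and -0.72 (V), and complex II, with 4 genes, had the median nearest 0. The lowest was ATP5D, which had 274, 194 and 248 RPKM in HT29 RPL9, RPL17 and RPL27, against 999 RPKM in HT29 NC. The 5 above 0 were ATP5S (0.81), NDUFS1 (0.44), COX7A1 (0.41), ATP5SL (0.19) and NDUFV3 (0.01). NDUFS1, the large iron-sulfur core subunit of complex I, had 1629, 1523 and 1368 RPKM in HT29 RPL9, RPL17 and RPL27, against 1105 RPKM in HT29 NC.

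**Figure D3:**
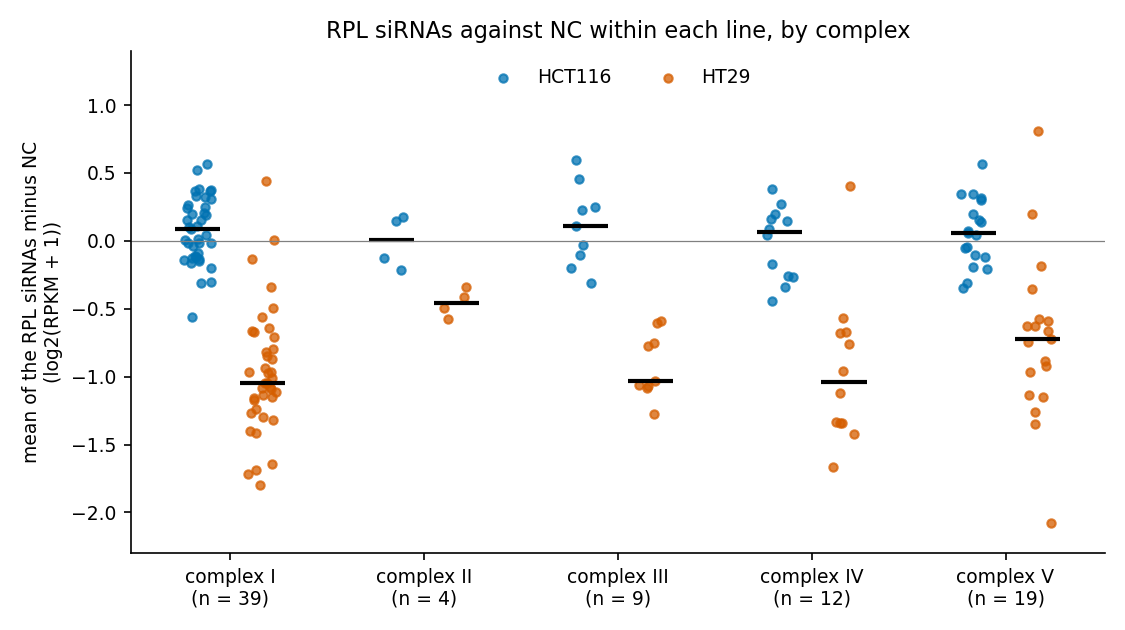
Mean log2 difference of the 3 RPL siRNAs from NC within each line (vertical axis) by complex, HCT116 left of HT29, 1 point per gene with a black bar at the median. In HCT116 the medians run from 0.01 to 0.11, in HT29 from -1.05 to -0.45.

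Transcript length moved with the HT29 values. Across the 83 genes the HT29 difference correlated with log2 length at a Spearman rho of 0.385 (Pearson r 0.412), against 0.521 over all tested genes, and in HCT116 the rho was -0.099 (r -0.05), against -0.057. The points share the HT29 NC library. With each library's trend with length removed, the HT29 median was -0.38, with 15 genes above 0 and 68 below, where 39.7% of all tested genes were below 0, and complex II had a median of 0.10. The HCT116 median was then 0.01. The cause of what remained was not tested.

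**Figure D4:**
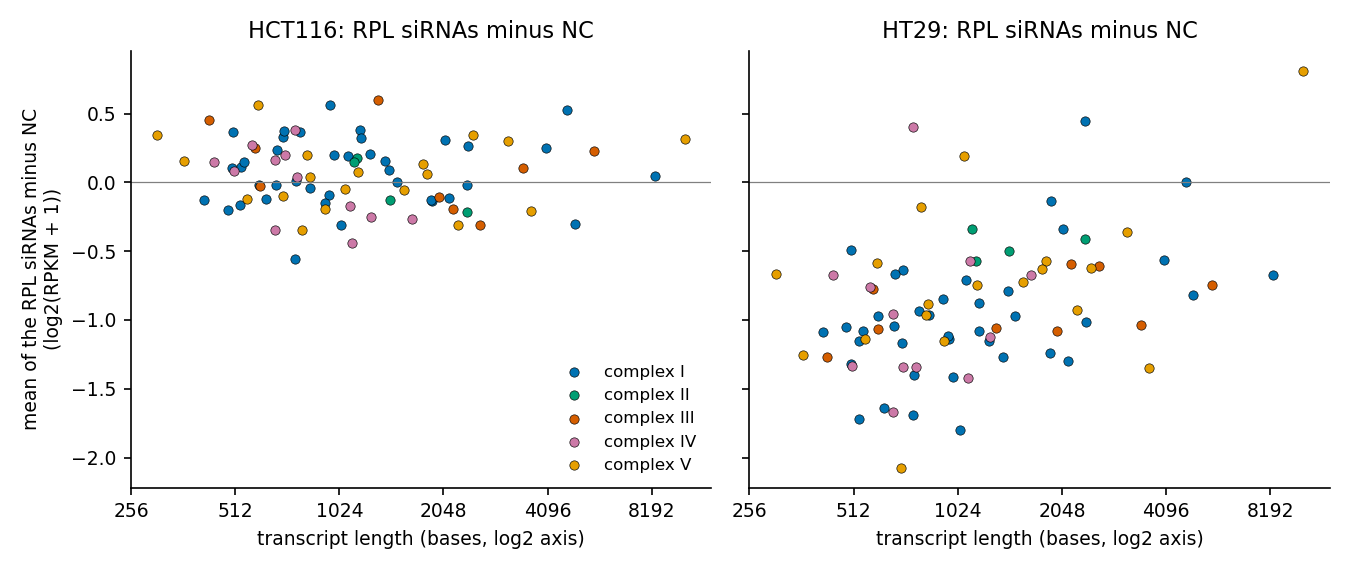
Mean log2 difference of the RPL siRNAs from NC (vertical axis) against transcript length in bases (horizontal log2 axis), HCT116 in the left and HT29 in the right panel, 1 point per gene. The HCT116 points spread around 0 at all lengths, and the HT29 points lie mostly below 0 and lowest at short lengths.

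With both lines in 1 fit, 0 of the 83 genes were called for all RPL siRNAs averaged against NC, where 0.168% of all tested genes were called. None was called for RPL9, RPL17 or RPL27 alone, where 0.007%, 0.014% and 0% were. At an unadjusted limma p under 0.05 there were 18, 5, 9 and 7 of the 83 for the mean, RPL9, RPL17 and RPL27, where 24.6%, 20.4%, 15.7% and 16.7% of all tested genes were. The medians were -0.42, -0.40, -0.49 and -0.41, against 0.10, 0.10, 0.10 and 0.12 over all tested genes, and each averages 2 lines that differ. The lowest in each complex for the mean were NDUFB6 with -1.12 (SE 0.28, limma adjusted p = 0.111), SDHA, the flavoprotein of complex II, with -0.31 (adjusted p = 0.216), UQCRC1 with -0.59 (adjusted p = 0.196), COX7C with -1.01 (adjusted p = 0.144) and ATP5D with -1.09 (adjusted p = 0.199). NDUFB6 had 235, 200.3 and 216 RPKM in HT29 RPL9, RPL17 and RPL27, against 701 RPKM in HT29 NC, and was lower than NC in all 6 RPL libraries.

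The limma interaction of line and any RPL siRNA called 59 of the 83 genes, all 59 with a higher difference from NC in HCT116 than in HT29, where 6.11% of all tested genes were called higher and 16.8% lower. With each library's length trend removed 10 were higher and 1 was lower, where 1.77% and 9.18% of all tested genes were. Each line has 1 NC library here, so that a difference in the response to the RPL siRNAs and the HT29 NC library itself cannot be told apart.

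Without the HT29 NC library, so that NC rests on the HCT116 library alone, taken to vary like the others, 6 genes were called for the mean. Among the 3 higher ones were ATP5G1 with 0.57 (limma adjusted p = 0.0111) and NDUFA3 with 0.56 (0.0191). Lower were NDUFB6 with -0.56, UQCRC2 with -0.31 and ATP5A1 with -0.31. The UQCRC2 mean comes from RPL27 alone (-1.07), since the HCT116 RPL9 and RPL17 libraries were not below HCT116 NC for this gene. Over all tested genes 6.91% were then called higher and 5.96% lower, so that 3 and 3 of 83 lie below the background. For RPL27 against NC the lower ones were UQCRC2 (-1.07), COX7C (-0.997), ATP5E (-0.79) and NDUFS7 (-0.64), and the higher ones NDUFA3 (0.68) and ATP5G1 (0.54), where 5.13% of all tested genes were lower and 4.9% higher. Without the HCT116 NC library the count for the mean was 73, 72 of them lower, where 48.6% of all tested genes were called.

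HCT116 had higher levels of many subunits than HT29 under the RPL siRNAs. Over the 6 RPL libraries, with siRNA as a term, 22 of the 83 genes (26.5%) were called higher in HCT116, where 11.1% of all tested genes were, and 4 (4.82%) were called lower, where 11.7% were. The median of the 83 log2 differences was 0.17, against 0.04 over all tested genes. In 29 genes (34.9%) all 3 HCT116 libraries lay above all 3 HT29 libraries, against 16.4% of all tested genes, and in 4 (4.82%) all lay below, against 15.9%. The differences are small, from 0.22 to 0.63 among the genes called higher. By complex 10 were higher and 0 lower of 39 in complex I, 1 and 1 of 4 in complex II, 3 and 0 of 9 in complex III, 1 and 1 of 12 in complex IV and 7 and 2 of 19 in complex V.

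In complex I the highest was NDUFS7, with 412, 425 and 307 RPKM in HCT116 RPL9, RPL17 and RPL27, against 254, 299 and 188 RPKM in HT29. The 3 HCT116 values lay above the 3 HT29 values, with means of 381 ± 64.9 and 247 ± 55.8 RPKM (SD over n = 3 different siRNAs each, not replicates). The log2 difference was 0.63 (SE 0.09, limma adjusted p = 0.00604). The membrane-arm subunits NDUFB10 (0.44), NDUFB7 (0.43) and NDUFB8 (0.31) followed with NDUFA13 (0.42), NDUFA8 (0.36), NDUFA11 (0.32), NDUFS4 (0.27), NDUFA9 (0.23) and NDUFS5 (0.22). In complex II the 2 catalytic subunits differed in opposite directions. SDHB, the iron-sulfur subunit, had 1611, 1502 and 1688 RPKM in HCT116, against 1158, 1206 and 1276 RPKM in HT29 (log2 difference 0.40, SE 0.06, limma adjusted p = 0.00684). SDHA had 916, 868 and 982 RPKM in HCT116, against 1087, 1095 and 1186 RPKM in HT29 (-0.29, SE 0.06, limma adjusted p = 0.0192). Neither gene's lines overlapped.

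In complex III, UQCR11 (0.41), UQCRB (0.26) and UQCRC1 (0.24) were higher in HCT116. In complex IV, COX6C was higher with 0.39 (limma adjusted p = 0.0176), and COX7A2L, known for joining complexes III and IV in supercomplexes, was lower with -0.32 (limma adjusted p = 0.0437). In complex V both catalytic subunits were higher. ATP5B had 6914, 7251 and 7533 RPKM in HCT116 RPL9, RPL17 and RPL27, against 5508, 5924 and 6135 RPKM in HT29, a log2 difference of 0.31 (SE 0.04, limma adjusted p = 0.00362), and ATP5A1 had 0.35 (SE 0.04, limma adjusted p = 0.0034). The c-subunit genes ATP5G1 and ATP5G3 had 0.33 and 0.29, the stalk genes ATP5O, ATP5F1 and ATP5C1 had 0.29, 0.28 and 0.26, and ATP5E (-0.35) and ATP5S (-0.85) were lower.

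**Figure D5:**
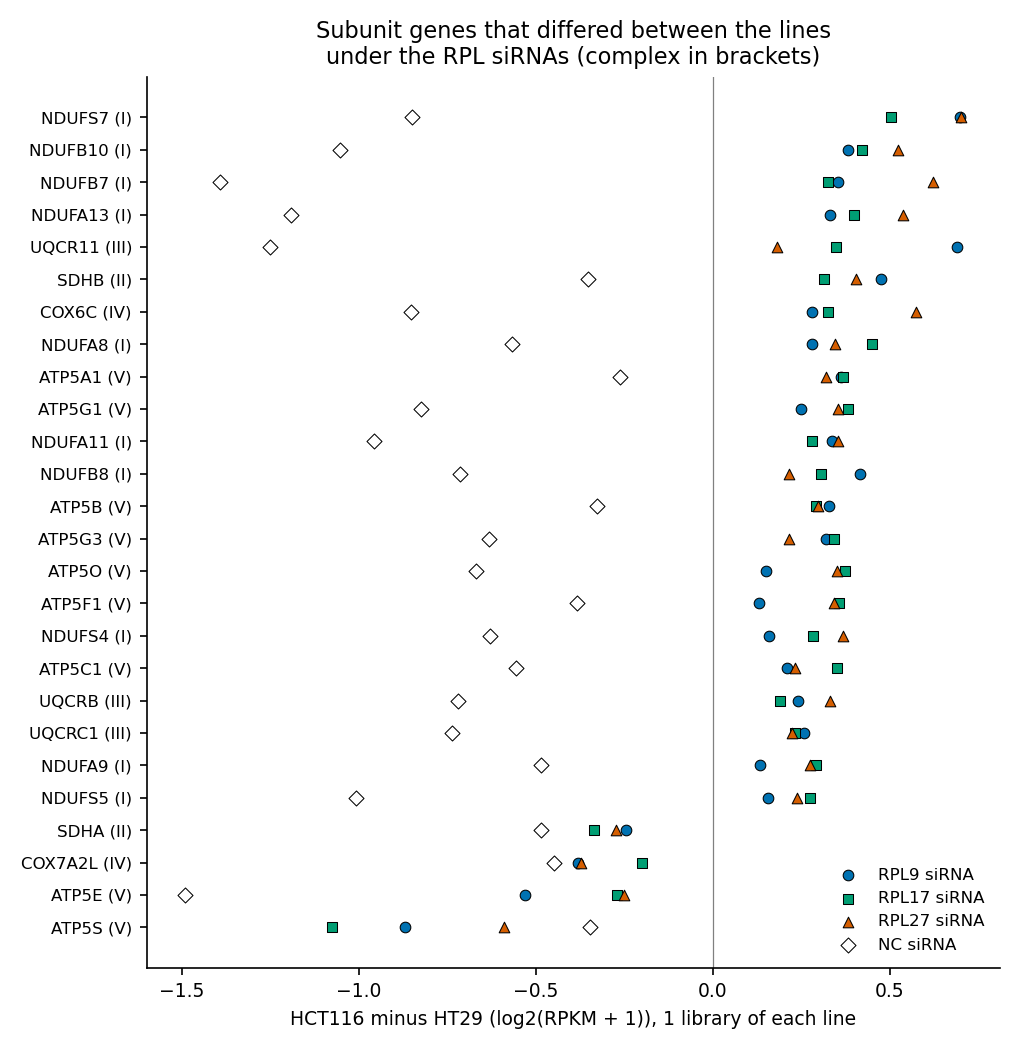
Log2 difference HCT116 minus HT29 for the 26 genes called between the lines, 1 point for each of RPL9, RPL17, RPL27 and NC siRNA. Under the RPL siRNAs the points of the 22 genes called higher lie mostly above 0, and those of the 4 called lower below 0. The NC points lie below 0 for all 26.

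In the NC libraries the median of HCT116 minus HT29 was -0.87, and 78 of the 83 genes were below 0, against 43.3% of all tested genes. All 22 genes called higher in HCT116 under RPL siRNA had the opposite direction there, from -1.39 to -0.26. The 4 called lower had the same direction, with -1.49 for ATP5E, -0.49 for SDHA, -0.45 for COX7A2L and -0.35 for ATP5S. The NC value contains the HT29 NC library with its high short transcripts, and its part was not tested here apart from the length trend. Leaving out HCT116 RPL17 left 4 of the 26 calls, HT29 RPL17 5, HCT116 RPL27 6 and HT29 RPL27 10. Leaving out HCT116 RPL9 gave 21 calls, and HT29 RPL9 25. The colon epithelial markers also differed, with 6 of 7 tested lower in HCT116 and sums of 20662 to 23058 RPKM in the HCT116 RPL libraries, against 35997 to 42258 RPKM in the HT29 RPL libraries, and their part was not tested.

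Some related mitochondrial genes were also called between the lines, where 11.1% of all tested genes were higher in HCT116 and 11.7% lower. Higher in HCT116 were 3 of 15 assembly factors of complex I, among them NDUFAF4 (0.57), and 6 of 24 of complex IV, among them TACO1, a translational activator of a mitochondrial COX subunit (0.50), and the copper chaperone SCO1 (0.47). Of the 14 assembly factors of complexes II, III and V 0 were called, and 3 had an unadjusted limma p under 0.05, as did 37.7% of all tested genes. Of the 10 subunits and carriers outside the symbol rule 6 were higher and 2 lower. C14orf2, a small ATP synthase subunit, had 1581, 1356 and 1343 RPKM in HCT116 RPL9, RPL17 and RPL27, against 1104, 840 and 991 RPKM in HT29 (0.55, limma adjusted p = 0.0044), COX4I1 had 0.29 and CYC1 0.22. ETFDH, which feeds electrons from fatty acid oxidation into ubiquinone, was higher with 0.65, and its partners ETFB (-0.52) and ETFA (-0.23) were lower. Of 17 genes of the citric acid cycle and pyruvate dehydrogenase 3 were higher, and of 23 import genes 6 were higher and 1, TIMM17B (-1.005), was lower.

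Of 21 regulators of mitochondrial biogenesis 4 were higher in HCT116 and 0 lower, where 11.1% and 11.7% of all tested genes were. PPARGC1B, a coactivator of mitochondrial genes, had 45.3, 48.4 and 54.1 RPKM in HCT116 RPL9, RPL17 and RPL27, against 16.5, 28.4 and 32.8 RPKM in HT29 (0.95, SE 0.21, limma adjusted p = 0.0265). It had 45.8 RPKM in HCT116 NC and 2.78 RPKM in HT29 NC. Its HT29 RPL libraries thus stood above HT29 NC while most subunit genes stood below it, where 42.4% of all tested genes were below for the RPL mean. PPARGC1B was not called for the RPL siRNAs averaged against NC (1.44, SE 0.60, limma adjusted p = 0.212).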

How the data were processed

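RNA from 8 cultures (HCT116 and HT29, each with RPL9, RPL17, RPL27 or NC siRNA) was sequenced from TruSeq libraries. Per the submitters' processing notes, CASAVA 1.8.2 and TopHat2 2.0.9 were used with hg19. The series title and design name only RPL9 and NC siRNA, while the sample labels give all 4. The authors deposited RPKM, 1 value per gene and library. How reads were assigned to genes is not stated. Depths are rough estimates, and without read counts no counting interval is given.

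On the scale log2(RPKM + 1), which understates changes of low genes, 14281 of 19124 genes (those averaging 1 RPKM or more) were tested with limma 3.58.1 (trend) in R 4.3.3. The RPL siRNAs were set against NC over 8 libraries with terms for line and siRNA. Over the 6 RPL libraries, with the same terms, each RPL siRNA was compared with the average of its 2 counterparts, and HCT116 with HT29. The difference between the lines in the RPL effect came from a fit of line, any RPL siRNA and their interaction. Tests are two-sided with Benjamini-Hochberg adjustment over all tested genes and a threshold of 0.05. The libraries are paired by cell line, which is a term of the fit, since the same line received every siRNA, and for the contrast of the lines by siRNA. Steps were tested on simulated data.

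The genes, lists, motifs and naming rule were chosen with earlier results of these data known. Named were a set list of subunits, called genes (at most 10 each way per contrast), the 3 highest and 3 lowest of each contrast, the extremes of each complex and genes near the minimum, and not all of them are given. The values of 1 gene that is counted are not reported here. The alternatives tried were a pseudocount of 0.1 or 5, a minimum mean of 5 or none, quantile normalization or median centring, no trend, robust variances, no line or siRNA term, each library left out, removal of each library's length trend (spline with 5 degrees of freedom, 14212 genes with a RefSeq length), and all 8 libraries in place of 6.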

Additional observations from a re-analysis of the deposited data

Results flagged for a closer look

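The limma interaction of line and any RPL siRNA, adjusted over all tested genes, called 59 of the 83 subunit genes. All 59 were higher in HCT116 relative to HT29 and 0 were lower, against 6.11% of all tested genes higher and 16.8% lower. They were 30 of 39 in complex I, 1 of 4 in complex II, 7 of 9 in complex III, 8 of 12 in complex IV and 13 of 19 in complex V. The median difference of the 83 was 0.98, against -0.19 over all tested genes. The 3 RPL siRNAs of a line serve as its replicates, and NC has 1 library per line, so that the test takes the NC library to vary like the others.

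The 10 with the highest log2 differences between the lines were ATP5D (1.97), NDUFB7 (1.83), UQCRQ (1.73), NDUFA3 (1.70), NDUFB2 (1.69), UQCR11 (1.66), NDUFA13 (1.62), COX5B (1.54), NDUFA2 (1.52) and NDUFB10 (1.5). ATP5D had 315, 285 and 307 RPKM in HCT116 RPL9, RPL17 and RPL27, against 324 RPKM in HCT116 NC, while in HT29 it had 274, 194 and 248 RPKM, against 999 RPKM in NC. With each library's length trend removed 10 were higher and 1 lower, with a median of 0.34, against 1.77% of all tested genes higher and 9.18% lower. The largest were then NDUFA9 (1.76) and UQCRB (1.68), and ATP5SL (-1.01) was the lower one. NDUFA9 and UQCRB were not among the 10 above, and their differences were larger with length removed than before. The HT29 NC library, which enters every one of these values, was not separable from the HT29 response, and its part beyond the length trend was not tested.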

How the results depend on the processing

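No gene-level call rests on repeated libraries, depth is known only roughly, and pseudogene reads were not separated. The pairing by line, or by siRNA for the contrast of the lines, mattered: with no replicate block the calls were 0 for each RPL siRNA against the other two and 7 between the lines, against 2 (RPL9), 1 (RPL17), 3 (RPL27) and 26 in the reported fits. Calls of the 3 RPL siRNA contrasts were also 0 with no filter, with no variance trend and with all 8 libraries. RPL9 had 1 with median centring, and RPL17 had 3 with a mean of at least 5 RPKM. Between the lines, calls were 5 with no filter, 1 with no trend and 0 with all 8 libraries, where the median was -0.085 and NDUFB7 (-0.0231), UQCR11 (-0.0073), UQCRC1 (-0.0069) and NDUFS5 (-0.085) turned, and the NC libraries alone gave a median of -0.87. The cause was not tested.

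Against NC, length removal gave 1 call for the mean, 1 for RPL9 and 2 for RPL27 and medians of -0.16 for the mean and -0.17 for RPL17. Without HT29 NC the medians turned, to 0.074 (mean), 0.0985 (RPL9), 0.0712 (RPL17) and 0.0423 (RPL27). ATP5G1 in the mean contrast was 0.57 without HT29 NC and -0.59 without HCT116 NC. Over all leave-one-out fits the calls and medians ranged from 0 to 73 and -0.96 to 0.07 (mean), 0 to 71 and -0.94 to 0.10 (RPL9), 0 to 71 and -0.95 to 0.07 (RPL17), and 0 to 73 and -0.93 to 0.04 (RPL27) against NC. Against the other RPL siRNAs they ranged from 0 to 1 and 0.02 to 0.11 (RPL9), 0 to 1 and -0.07 to -0.04 (RPL17), and 0 to 3 and -0.05 to 0.04 (RPL27). Between the lines they ranged from 4 to 25 and 0.15 to 0.21. The line difference of the RPL effect ranged from 50 to 57 and 0.96 to 1.02, with a median of 1.42 under median centring and 11 calls and 0.34 with length removed. It could not be fitted without either NC library or with no replicate block. Median centring moved the all-gene median of the mean contrast to -0.095 from 0.10. Of 2265 alternative values of single genes, 1806 were the same, 252 lost and 71 gained a call, 131 moved and 5 reversed. The same means a call kept in its direction or, for a gene not called, a value within its SE and still no call. Moved means a gene not called in either fit whose value shifted by more than its SE. A reversal was counted only where the gene was called in the reported fit or the alternative. Sign changes of genes not called in either are not counted as reversed.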

Other observations

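In HCT116, 19 of 23 genes of mitochondrial protein import had a mean RPL siRNA level above NC (median log2 difference 0.33, 6 genes past 0.5), as did 13 of 15 assembly factors of complex I (median 0.21) and 18 of 24 of complex IV (median 0.16), where 50.5% of all tested genes were above and the subunit genes had a median of 0.07. In HT29 the same lists had 7 of 23, 3 of 15 and 6 of 24 above NC, with medians of -0.27, -0.23 and -0.56, against -0.96 for the subunit genes, where 57.6% of all tested genes were above. With each library's length trend removed, HT29 had 11 of 23 import genes above NC (median -0.03), 9 of 15 assembly factors of complex I (median 0.38, the opposite direction) and 8 of 24 of complex IV (median -0.25), where 60.3% of all tested genes were. Other lists did not share the HCT116 pattern. With length removed, HCT116 had 7 of 14 assembly factors of complexes II, III and V above NC, where 50.5% of all tested genes were. The regulators of mitochondrial biogenesis had 12 of 21 above, and the subunits and carriers outside the symbol rule 3 of 10. The 17 genes of the citric acid cycle and pyruvate dehydrogenase, which feed the chain with NADH and succinate, had medians of -0.08 in HCT116 and 0.13 in HT29. These are values of single libraries, and none of these lists had a gene called for the RPL siRNAs averaged against NC in the limma fit of both lines. There, import had 4 genes, complex I assembly 1, complex IV assembly 3 and the citric acid cycle 6 with p (unadjusted) under 0.05, where 24.6% of all tested genes passed it.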
